A study of Mus musculus with 6 samples.

Results

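*Nodal*, *Lefty1*, *Lefty2*, *Foxh1* and *Skil* encode a ligand of the activin branch of TGF-β signaling, its 2 secreted antagonists, the DNA-binding partner of SMAD2 and SMAD3, and a corepressor that holds these SMADs in check. They were described here by every probe set that carries 1 of these symbols and no other, which gave 8 probe sets of 45037 on the array and 5 genes of 17097. Levels come from 6 Affymetrix arrays of E14tg2a cells, a mouse embryonic stem cell (ESC) line, with 1 array per condition. The conditions were ESCs, for which the labels name no shRNA, epiblast-like cells (EpiLCs) with a scramble shRNA at day 2 (d2) and day 4 (d4), scramble EpiLCs + PRDM14, and a further d2 array and + PRDM14 array labelled *Tet1*/*Tet2* KD, an shRNA knockdown of the TET dioxygenases that oxidize methylated cytosine. According to the study's methods, EpiLCs were made on fibronectin with activin A and bFGF, then replated in a serum replacement medium named GK15, with or without doxycycline. The methods name activin A for the EpiLC medium and do not name it for GK15, so the d2 arrays stand for cells taken from a medium that feeds the same receptors as NODAL. PRDM14, a zinc-finger regulator of naive pluripotency and germ cells, was to be expressed from a doxycycline-inducible piggyBac cassette in picked ESC colonies. For the ESCs themselves the sources give serum with LIF in the labels and a serum-free medium with 2 kinase inhibitors and LIF in the EpiLC section of the methods, and which of them the ESC array came from is not stated, so medium and cell state cannot be told apart in any comparison with ESCs. The day of the + PRDM14 arrays is not in the labels, and no d4 array without PRDM14 belongs to the KD arrays.

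NODAL binds activin receptors together with an EGF-CFC coreceptor, and the receptor kinase phosphorylates SMAD2 and SMAD3, which enter the nucleus with SMAD4. There FOXH1 guides them to enhancers of *Nodal* itself and of *Lefty1* and *Lefty2*, so that the ligand raises its own level and that of its antagonists. In the mouse epiblast this loop keeps cells in the primed state and later patterns the body axes, whereas SKIL, also called SnoN, recruits corepressors to SMAD targets and is itself a target of the pathway.

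The ligand gene is the member for which a start-site sequence is given, so its proximal promoter is shown as the place where the loop could be looked for in letters. A promoter sequence was at hand for 1 of the 5 members. On the build GRCm38.p6, the 250 bases directly before the start site of *Nodal* lie on the + strand at chr10:61417722-61417971, all in lower case because no motif searched was found in them:
*Nodal*: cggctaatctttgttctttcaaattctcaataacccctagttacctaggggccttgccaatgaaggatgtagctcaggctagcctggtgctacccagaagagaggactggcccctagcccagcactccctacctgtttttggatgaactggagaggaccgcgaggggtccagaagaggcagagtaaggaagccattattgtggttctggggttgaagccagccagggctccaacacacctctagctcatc
Both strands were searched for the FOXH1 motif AATCCACA, its looser form AATNCACA that contains it, the SMAD motif CAGAC, the octamer ATTTGCAT and the PRDM14 motif GGTCTCTAA, with 0 matches each. Among 32851 promoter windows of the same length, 0.718% held AATCCACA, 3.18% AATNCACA, 42.2% CAGAC, 1.6% ATTTGCAT and 0.24% GGTCTCTAA. These letters are not in this window, which says nothing of the enhancers, known from mouse genetics to lie farther upstream and in an intron of the gene.

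All levels are log2 signals above the median of their own array, because the deposited columns labelled KD had medians of 5.07 and the others 5.28 to 5.29. A separate normalization of the KD-labelled arrays and the knockdown itself cannot be told apart in any difference between those 2 arrays and the other 4. The label was checked on *Tet2*, whose brighter probe set was at 3.25 in EpiLCs (d2) and 3.43 in the d2 array labelled KD, and at 3.23 and 2.69 in the corresponding + PRDM14 arrays. *Tet2* was thus not lower in the d2 array labelled KD, and *Tet1* was not analysed here. The only *Prdm14* probe set was at 1.67 in ESCs and between -0.37 and -0.10 in every EpiLC array, the + PRDM14 arrays included, and whether the cassette holds the sequence it reads was not examined. Between ESCs, EpiLCs (d2) and EpiLCs + PRDM14, the naive and most primed markers moved as the study reports for these cell states. This is not a check of PRDM14 itself. All 7 naive markers were more than 1.5-fold lower in EpiLCs (d2) than in ESCs and higher again in EpiLCs + PRDM14, 5 of 6 primed markers moved the opposite way in both comparisons, and *Pou5f1*, *Sox2* and *Sall4* stayed between 4.75 and 6.18 on all arrays. In the arrays labelled KD, 5 of 7 naive markers were higher and 5 of 6 primed markers lower with PRDM14. At d2, 4 of 7 naive markers were already higher there than in scramble EpiLCs (d2). With 1 array per condition there is no replicate spread and no test. Differences of 1.5-fold (0.58 on the log2 scale), the cut-off used in the study, are called higher or lower as a description of single arrays, whose small number limits how precise any value here can be.

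*Nodal*, the ligand, was at nearly the same level on 5 of the 6 arrays and lower on the last at its brighter probe set, but not as clearly at the other. Its brighter probe set, 1422058_PM_at, was at 3.88 in ESCs, 4.11 at d2, 3.83 at d4 and 3.92 with PRDM14 in the scramble EpiLCs, 4.17 in the d2 array labelled KD and 3.04 in the + PRDM14 array labelled KD. The first 5 of these lie within 0.34 of each other, and the step down to the last was 0.79. The other probe set, 1422057_PM_at, was at 1.94, 2.19, 1.92, 2.05, 1.73 and 1.31 in the same order. It was lowest on the same array, but none of the steps between neighbors in its order passed 1.5-fold. Its other 5 arrays spread over 0.45, more than the step of 0.42 down to the lowest. EpiLCs (d2) differed from ESCs by 0.23 and 0.24 at the 2 probe sets, and EpiLCs + PRDM14 differed from EpiLCs (d2) by -0.19 and -0.14. Between the arrays labelled KD, the ligand was 2.18-fold lower with PRDM14 at the brighter probe set (-1.13), whereas the other probe set gave -0.42. Compared with scramble EpiLCs + PRDM14, the KD-labelled array was 1.84-fold lower (-0.88) at the brighter probe set and 1.67-fold lower (-0.74) at the other. The gene of the ligand thus lay within 1.5-fold of its ESC level in all scramble EpiLC arrays at both probe sets. These are bulk cultures, in which fewer cells that use a gene and less RNA per cell cannot be told apart.

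**Figure D1:**
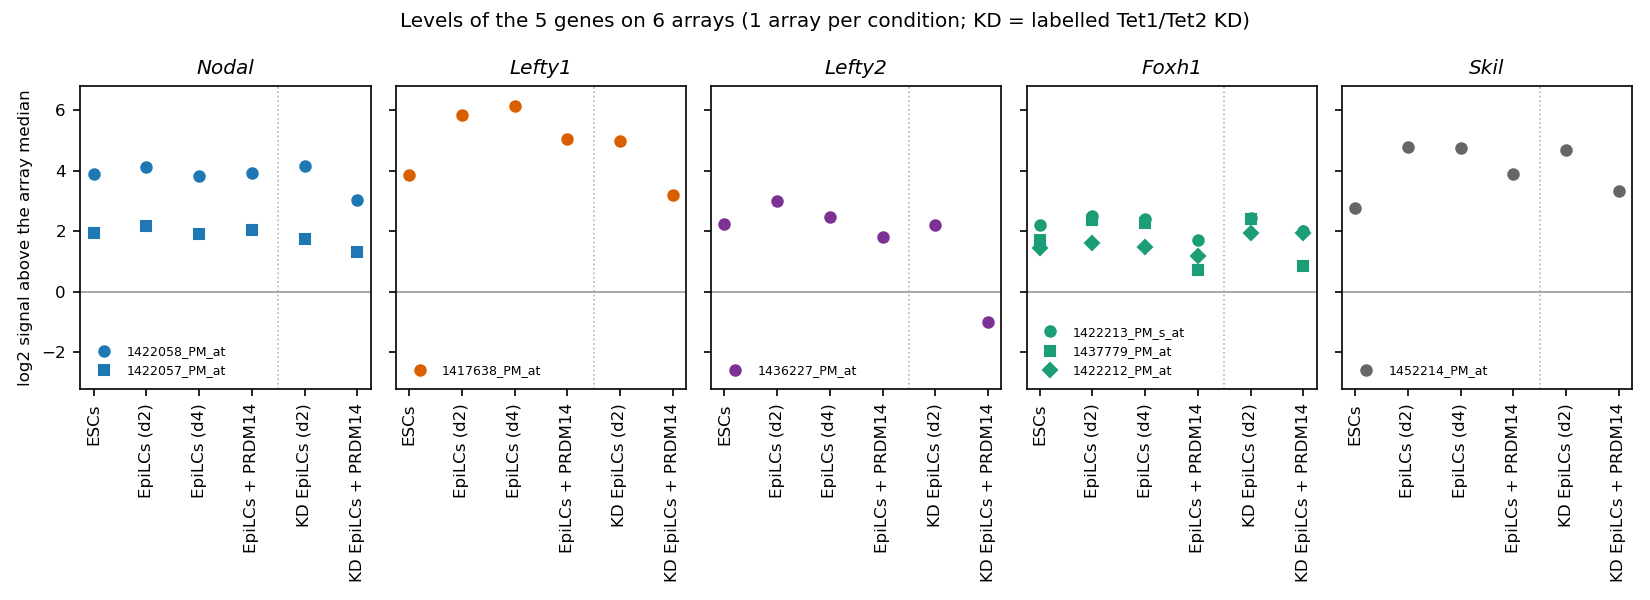
Log2 signal above the array median (vertical axis) of the 8 probe sets of the 5 genes on the 6 arrays (horizontal axis), 1 point per probe set and array, with the arrays labelled KD right of the dotted line. *Lefty1* and *Skil* stand higher in the scramble d2 and d4 arrays than in ESCs, and *Lefty2* drops to -0.99 on the KD-labelled + PRDM14 array.

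*Lefty1*, which encodes a secreted TGF-β family member that blocks NODAL and its coreceptor, had its highest levels in the scramble EpiLCs without PRDM14. Its single probe set, 1417638_PM_at, was at 3.87 in ESCs, 5.85 at d2, 6.15 at d4 and 5.06 with PRDM14 in the scramble EpiLCs, 4.98 in the d2 array labelled KD and 3.21 in the + PRDM14 array labelled KD. It was 3.94-fold higher in EpiLCs (d2) than in ESCs (1.98), and the d4 array differed from d2 by 0.31. With PRDM14 it was 1.72-fold lower than in EpiLCs (d2) (-0.78) and 2.13-fold lower than in EpiLCs (d4) (-1.09). That left EpiLCs + PRDM14 still 1.19 above ESCs, between the ESC and EpiLC levels. In the d2 array labelled KD the antagonist was 1.82-fold lower than in scramble EpiLCs (d2) (-0.86), and with PRDM14 it was lower by a further 3.43-fold (-1.78). The KD-labelled + PRDM14 array ended 0.66 below ESCs and 3.61-fold below scramble EpiLCs + PRDM14 (-1.85). Of the 5 steps between neighbors in the order of its levels 3 passed 1.5-fold, and those from the d2 array labelled KD to EpiLCs + PRDM14 (0.08) and from EpiLCs (d2) to EpiLCs (d4) (0.31) did not.

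*Lefty2*, the paralog and the other feedback antagonist, had the widest range of the 5 genes. Probe set 1436227_PM_at was at 2.23 in ESCs, 2.99 at d2, 2.47 at d4 and 1.81 with PRDM14 in the scramble EpiLCs, 2.22 in the d2 array labelled KD and -0.99 in the + PRDM14 array labelled KD. The other arrays form a series with no step past 1.5-fold between neighbors, and that KD-labelled array stands 2.80 below the nearest of them. In the scramble arrays it was 1.69-fold higher in EpiLCs (d2) than in ESCs (0.76), and lower in EpiLCs + PRDM14 than in EpiLCs (d2) by 2.26-fold (-1.18). Against EpiLCs (d4) it was 1.58-fold lower (-0.66), a call that was lost, at -0.48, when arrays were aligned on housekeeping genes. Between the KD-labelled arrays it was 9.26-fold lower with PRDM14 (-3.21), the decrease that ranked 3 among 45037 probe sets, and the 6.94-fold difference from scramble EpiLCs + PRDM14 (-2.80) ranked 2. On that array, 16 measured genes of organs such as liver and pancreas, which these cells are not known to use, had levels of -1.67 to 1.96, so the *Lefty2* value lay inside that range. Probe sets differ in affinity, so this is not a detection call, and the value rests on 1 probe set on 1 array. Among the trophoblast markers, 2 of 6 moved with it. Of the 6 on the list, *Krt7* (1.42) and *Ascl2* (1.28) were more than 1.5-fold higher on that array than in the d2 array labelled KD, and the summed linear level of all 6 was 12.5 against 8.25 to 10.2 on the other arrays. The defining markers *Cdx2* (0.56) and *Elf5* (-0.51) were within 1.5-fold of their levels elsewhere, and the part of such cells in the result was not tested. *Ascl2* (1.31) and *Krt7* (0.78) were also more than 1.5-fold higher in EpiLCs (d4) than in EpiLCs (d2), and *Lefty2* was at 2.47 in EpiLCs (d4).

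*Foxh1*, which encodes the forkhead factor that brings SMAD2 and SMAD3 to enhancers, was lowest in the scramble array with PRDM14, and its 3 probe sets differed in the size of that difference. The brightest, 1422213_PM_s_at, was at 2.19 in ESCs, 2.52 at d2, 2.41 at d4 and 1.72 with PRDM14 in the scramble EpiLCs, 2.44 in the d2 array labelled KD and 2.00 in the + PRDM14 array labelled KD. Probe set 1437779_PM_at was at 1.71, 2.37, 2.26, 0.71, 2.41 and 0.86 in the same order, which sets both + PRDM14 arrays apart from the rest by a step of 0.85. Probe set 1422212_PM_at was at 1.44, 1.61, 1.46, 1.19, 1.94 and 1.94, with no step past 1.5-fold. Relative to EpiLCs (d2), the scramble array with PRDM14 was 1.73-fold lower at the brightest probe set (-0.79), 3.16-fold lower at 1437779_PM_at (-1.66) and within the threshold at 1422212_PM_at (-0.42). Relative to EpiLCs (d4) the values were -0.69, -1.55 and -0.28, of which the first became -0.51 and lost its call with the housekeeping alignment. Between the KD-labelled arrays they were -0.44, -1.55 and 0.01. At 1437779_PM_at the gene was therefore 2.93-fold lower with PRDM14 in the arrays labelled KD, close to the scramble difference, while the brightest probe set did not pass. On the scramble + PRDM14 array the organ genes used for *Lefty2* lay between -1.70 and 1.80, a range that holds all 3 *Foxh1* values, so the folds there carry the same limit. Which transcripts each probe set reads was not examined. In contrast to the *Lefty* genes, no *Foxh1* probe set was past 1.5-fold in the d2 array labelled KD relative to its scramble counterpart (-0.08, 0.04 and 0.33), and the 0.04 became -0.09 with the housekeeping alignment.

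*Skil*, the corepressor and feedback target, had the pattern of a gene that was higher in EpiLCs and lower with PRDM14 in both backgrounds. Its probe set 1452214_PM_at was at 2.76 in ESCs, 4.78 at d2, 4.76 at d4 and 3.90 with PRDM14 in the scramble EpiLCs, 4.68 in the d2 array labelled KD and 3.32 in the + PRDM14 array labelled KD. The 3 EpiLC arrays without PRDM14 lie within 0.10 of each other, and the remaining arrays lie below them. EpiLCs (d2) were 4.07-fold higher than ESCs (2.03), the largest difference of any of the 8 probe sets in that comparison. EpiLCs + PRDM14 were 1.84-fold lower than EpiLCs (d2) (-0.88) and 1.81-fold lower than EpiLCs (d4) (-0.86), which left the gene 1.14 above ESCs. In the arrays labelled KD it was 2.56-fold lower with PRDM14 (-1.36) and ended 0.57 above ESCs. The difference between the + PRDM14 arrays, -0.57, was just within the threshold and passed it at -0.79 with no median subtracted and at -0.84 with the housekeeping alignment.

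Counted by comparison, a larger share of the 8 probe sets than of all probe sets was past 1.5-fold in 6 of the 7 comparisons made, the exception being d4 with d2. The members were chosen with earlier results of these data known, and the comparisons share arrays. All 8 have a mean signal over the 6 arrays above the median, whereas the share of all probe sets includes dim ones. *Lefty2* nevertheless lay below the median (-0.99) on the KD-labelled + PRDM14 array. The shares here and below are therefore a description only. In EpiLCs (d2) minus ESCs, 4 of 8 were higher and 0 lower, namely those of *Lefty1*, *Lefty2* and *Skil* and 1 of *Foxh1*, with a median of 0.49, where 3.52% of all probe sets were past the threshold in either direction. In EpiLCs (d4) minus EpiLCs (d2), 0 of 8 passed against 2.38% of all probe sets, and the median was -0.13. In EpiLCs + PRDM14, 5 of 8 were lower and 0 higher than in EpiLCs (d2) (median -0.79, against 3.24% of all probe sets). The same 5 were lower than in EpiLCs (d4), a comparison that shares the + PRDM14 array with the former (median -0.67, against 2.77%). Relative to d2, culture time, medium and PRDM14 cannot be told apart, whereas d4 is the array that was replated without PRDM14. The 5 were those of *Lefty1*, *Lefty2* and *Skil* and 2 of *Foxh1*, so genes of the antagonists, the partner and the corepressor were lower while both *Nodal* probe sets stayed within the threshold. In the arrays labelled KD, 5 of 8 were lower and 0 higher with PRDM14 (median -1.24, against 3.57%), here with *Nodal* at its brighter probe set and *Foxh1* at 1 of 3. Over all probe sets the median differences lay between -0.01 and 0.02.

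**Figure D2:**
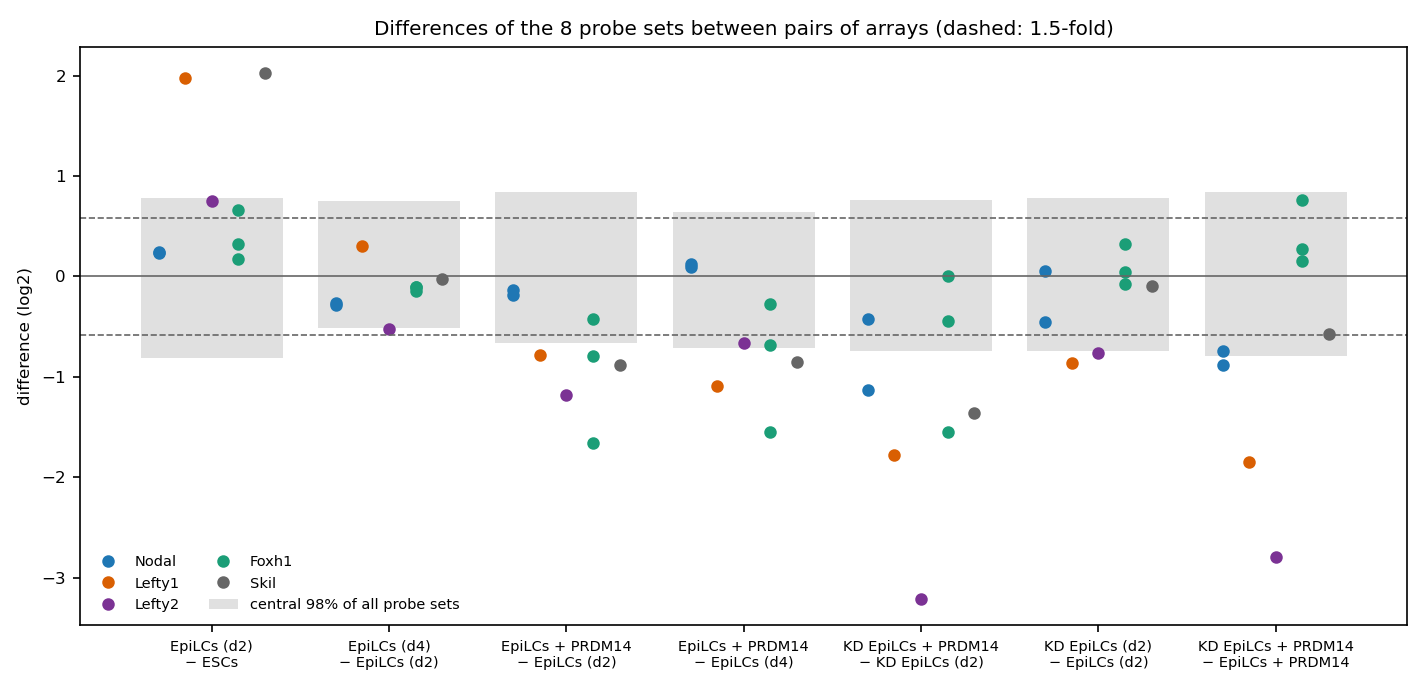
Log2 difference (vertical axis) of the 8 probe sets in 7 pairs of arrays (horizontal axis), 1 point per probe set, with the central 98% of all 45037 probe sets in gray and 1.5-fold as dashed lines. With PRDM14, 5 points lie below the gray band relative to EpiLCs (d2), 3 relative to EpiLCs (d4) and 5 in the arrays labelled KD, and none above it.

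The array labelled KD at d2 differed from scramble EpiLCs (d2) at 2 of 8 probe sets, both lower, with a median of -0.09, where 5.04% of all probe sets were past the threshold. These were the antagonist genes *Lefty1* (-0.86) and *Lefty2* (-0.76), whereas *Nodal* differed by 0.06 and -0.45 at its brighter and dimmer probe sets, *Skil* by -0.10 and *Foxh1* by 0.33 at most. The dimmer *Nodal* probe set passed at -0.67 with no median subtracted and at -0.59 with the housekeeping alignment, and the brighter took the opposite sign, at -0.16 and -0.08. Naive markers moved with this difference, since 4 of 7 of them were more than 1.5-fold higher in the d2 array labelled KD (median 0.70), and their part in the *Lefty* values was not tested. Primed markers did not, with 0 of 6 past the threshold and a median of -0.02. In the + PRDM14 arrays, 4 of 8 were lower in the array labelled KD and 1, *Foxh1* at 1422212_PM_at (0.76), was higher, against 6.16% of all probe sets and with a median of -0.66. With no median subtracted or with the housekeeping alignment, that *Foxh1* value was 0.54 or 0.49 and *Skil* passed instead, which gave 5 lower and 0 higher. The 4 lower ones were both *Nodal* probe sets, *Lefty1* and *Lefty2*, that is, the ligand and its antagonists together. The dimmer *Nodal* probe set, at 1.73 and 1.31 on the arrays labelled KD, lay inside the range of the organ genes there, which reached 1.87 and 1.96. On the KD-labelled + PRDM14 array so did *Foxh1* at 1437779_PM_at (0.86) and 1422212_PM_at (1.94). The folds of these probe sets carry the limit given for *Lefty2*.

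The drop between the d2 and + PRDM14 arrays was larger in the arrays labelled KD at every probe set except those of *Foxh1*. For *Skil* and the dimmer *Nodal* probe set the excess was within 1.5-fold. Subtracting the scramble difference from the KD-labelled difference gave -2.03 for *Lefty2*, -0.99 for *Lefty1*, and -0.94 and -0.28 for the probe sets of *Nodal*. It gave -0.48 for *Skil* and 0.35, 0.11 and 0.43 for the probe sets of *Foxh1*. Thus 3 of 8 were past 1.5-fold, all of them more negative in the arrays labelled KD, against 2.76% of all probe sets, and the median was -0.38. The value of *Lefty2* ranked 3 from the most negative of 45037. These are differences among 4 single arrays, with no test of the interaction. The part of the normalization of the arrays labelled KD in these values was not tested. Both terms are taken relative to d2, so culture time, medium and PRDM14 cannot be told apart in either of them.

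**Figure D3:**
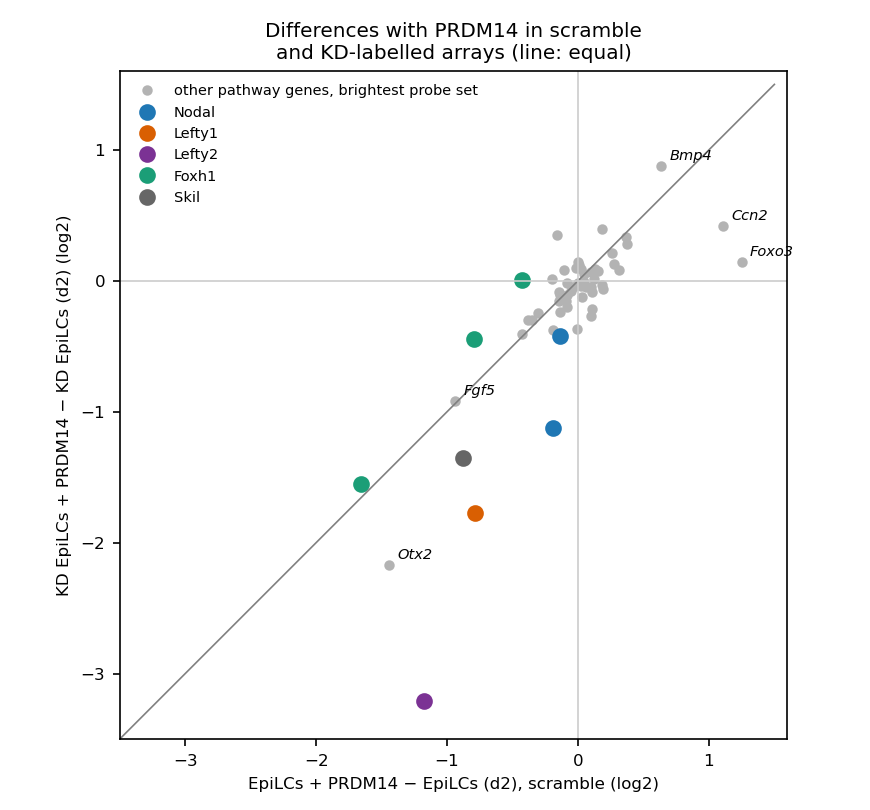
Log2 difference with PRDM14 in the scramble arrays (horizontal axis) against that in the arrays labelled KD (vertical axis), for the 8 probe sets of the 5 genes in color and the brightest probe sets of 51 other pathway genes in gray. *Lefty2* (-1.18 and -3.21), *Lefty1* (-0.78 and -1.78) and the brighter *Nodal* probe set (-0.19 and -1.13) lie below the line of equal differences, and *Foxh1* lies near it or above.

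The array with the lowest level was not the same for all 5 genes. The + PRDM14 array labelled KD held the lowest value of *Lefty1*, *Lefty2* and both *Nodal* probe sets, whereas ESCs held the lowest value of *Skil* and scramble EpiLCs + PRDM14 the lowest of all 3 *Foxh1* probe sets. Over the 6 arrays the range was 3.97 for *Lefty2*, 2.94 for *Lefty1*, 2.03 for *Skil*, 1.13 and 0.88 for *Nodal*, and 1.70, 0.79 and 0.76 for *Foxh1*. Between 89.3% and 99.9% of all probe sets had a smaller range. Of the 40 steps between neighbors in the order of levels, 7 passed 1.5-fold. Pearson's r between brightest probe sets over the 6 arrays was highest for *Nodal* with *Lefty2* (0.94), then *Lefty1* with *Skil* (0.86), and lowest for *Nodal* with *Foxh1* (0.46). All such values share the same 6 arrays and are a description. Without the + PRDM14 array labelled KD, *Nodal* with *Lefty2* was at 0.33 over 5 arrays, *Nodal* with *Lefty1* at 0.08 in place of 0.69, *Lefty1* with *Lefty2* at 0.51 in place of 0.78 and *Lefty2* with *Foxh1* at 0.83 in place of 0.54, so these values depend on that array.

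Genes whose levels ran most like those of a member were taken from 1215 genes with a range of at least 1.0 over the arrays, as the 3 with the highest Pearson's r. For *Nodal* they were *Smagp*, which encodes a small adhesion glycoprotein (0.98), *Msantd2* (0.95) and *Lefty2* (0.94). For *Lefty2* they were *1700097N02Rik* (0.98), *Smagp* (0.96) and *Zfp850* (0.96), so *Smagp* was close to both. For *Lefty1* they were *Sall1*, a zinc-finger gene (0.98), the lactate dehydrogenase gene *Ldha* (0.98) and *Hook1*, the gene of a microtubule linker (0.98). For *Foxh1* they were *Cep76*, a centrosomal protein gene (0.99), *Enc1* (0.98) and the thioredoxin reductase gene *Txnrd1* (0.97), and for *Skil* the adhesion gene *Epcam*, the zinc-finger gene *Wt1* and the cell cycle repressor gene *E2f7* (0.99 each). With 6 shared arrays and so many genes these values are a description, and they say nothing of the size of the differences. Without the + PRDM14 array labelled KD, the values for *Nodal* were 0.81, 0.84 and 0.33 and those for *Lefty2* 0.79, 0.68 and 0.90 in the order given, while those for *Lefty1*, *Foxh1* and *Skil* were 0.97 or more.

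Around these 5 genes, 51 of 61 listed genes of the pathway were measured, and at most 5 of them were past 1.5-fold in a comparison at their brightest probe set. Measured were 11 of 14 ligands and cofactors, 7 of 7 receptors, 11 of 12 SMADs and nuclear partners, 11 of 12 inhibitors and 11 of 16 targets. In EpiLCs (d2) minus ESCs, 2 were higher and 2 lower, where 4.99% of all genes were past the threshold in either direction. The higher ones were targets, the homeobox gene *Otx2* (1.71) and the growth factor gene *Fgf5* (0.93), both also on the list of primed markers, and the lower ones were the SMAD partner *Foxo3* (-1.28) and the ligand gene *Bmp4* (-1.17), of the branch that signals through other SMADs. In EpiLCs (d4) minus EpiLCs (d2), 2 were higher and 2 lower, against 3.29% of all genes, with *Ccn2*, a matricellular protein gene (1.74), and *Foxo3* (0.79) above, and *Otx2* (-1.10) and the ubiquitin ligase gene *Nedd4l* (-0.61) below. With PRDM14 in the scramble arrays, *Otx2* (-1.44) and *Fgf5* (-0.94) were lower than in EpiLCs (d2) and *Foxo3* (1.25), *Ccn2* (1.11) and *Bmp4* (0.63) higher, against 4.63% of all genes. Relative to EpiLCs (d4), *Fgf5* (-0.64) and *Ccn2* (-0.64) were lower and *Bmp4* (0.66) higher, against 4.03%. *Ccn2* thus lay on opposite sides with the 2 reference arrays, and *Otx2* (-0.34) lost its call. Other probe sets did not pass with their gene in several cases, as for *Fgf5*, whose dimmer probe set gave -0.05 in the PRDM14 comparison with d2, and for *Nedd4l*, whose 3 others stayed within 0.09 between d2 and d4. *Foxo3* was higher by 0.61 at another probe set in the former comparison and differed by -0.01 at the remaining probe set.

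In the arrays labelled KD, *Otx2* (-2.17) and *Fgf5* (-0.92) were lower with PRDM14 and *Bmp4* (0.88) higher, against 4.66% of all genes. Relative to scramble EpiLCs (d2), the d2 array labelled KD had 5 pathway genes higher and 0 lower, against 5.55%. They were *Bmp4* and *Ccn2* (1.14 each), *Tgfb3*, which encodes another SMAD2/3 ligand (0.92), the activin-binding follistatin family gene *Fstl3* (0.74) and *Foxo3* (0.74). Between the + PRDM14 arrays, *Bmp4* (1.38), *Tgfb3* (0.80) and *Fstl3* (0.73) were higher in the array labelled KD and *Otx2* (-0.91) lower, against 6.96%. On all arrays *Tgfb3* (-0.345 to 0.656), *Fstl3* (0.08 to 0.98) and *Fgf5* (0.08 to 1.32) lay inside the range of the organ genes, -1.74 to 1.96. Some values of *Bmp4*, *Foxo3* and *Otx2* did too. The folds of all these genes carry the limit given for *Lefty2*. The difference of the PRDM14 differences was past 1.5-fold and negative for *Foxo3* (-1.10), *Otx2* (-0.73) and *Ccn2* (-0.69), against 3.25% of all genes. For *Otx2* this was a larger drop in the arrays labelled KD. *Foxo3* and *Ccn2* did not drop with PRDM14: they were higher by 1.25 and 1.11 in the scramble arrays, and by 0.14 and 0.415 in the arrays labelled KD. At the other *Foxo3* probe sets the difference of differences was -0.28 and -0.08. *Otx2* was at 1.24, 2.95, 1.85, 1.51, 2.77 and 0.61 in the array order used above, and of these 8 pathway genes it alone had its lowest level in the + PRDM14 array labelled KD.

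**Figure D4:**
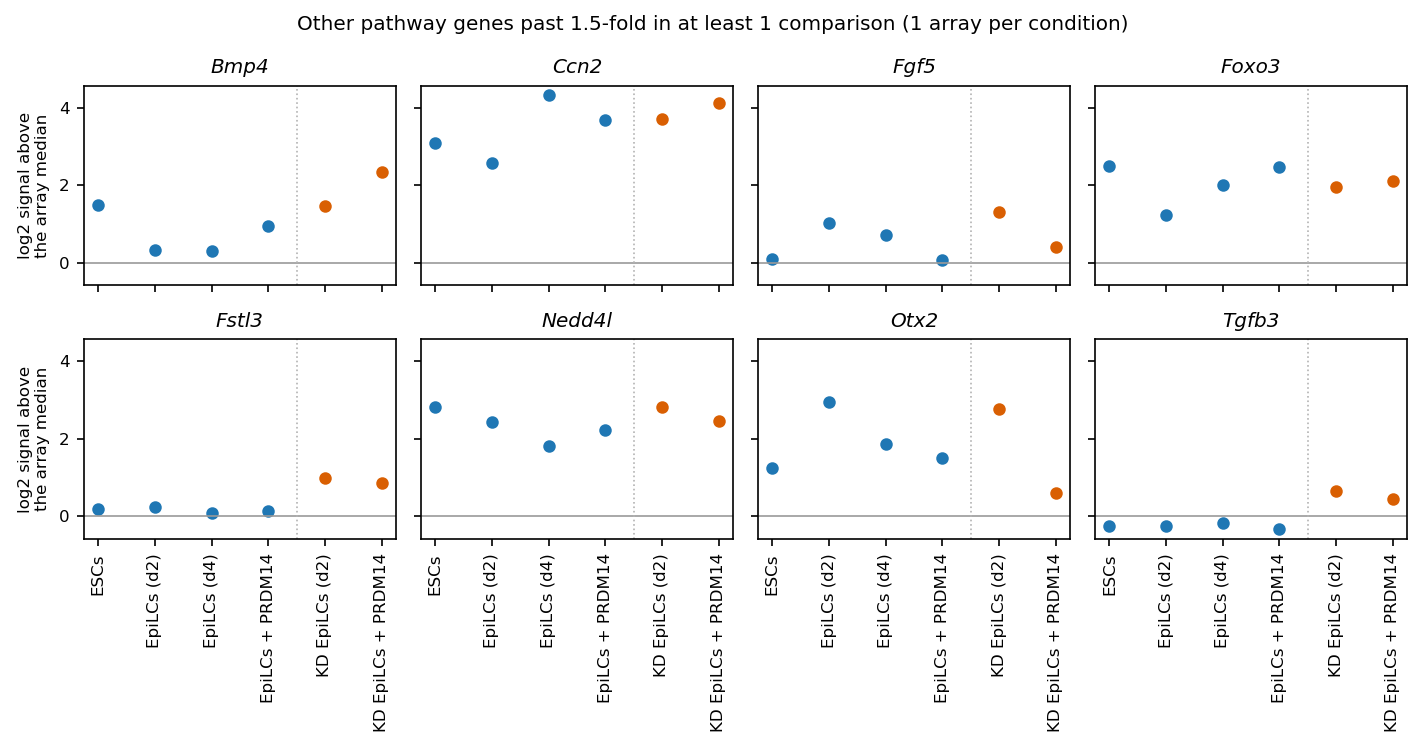
Log2 signal above the array median (vertical axis) of the 8 other pathway genes past 1.5-fold in at least 1 comparison, at their brightest probe sets on the 6 arrays (horizontal axis), with scramble and ESC arrays in blue and arrays labelled KD in orange. *Otx2* is highest in EpiLCs (d2) at 2.95 and lowest in the KD-labelled + PRDM14 array at 0.61. *Tgfb3* and *Fstl3* stand higher on both arrays labelled KD, but inside the range of the organ genes on every array.

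Neither the receptor genes nor those of the main SMADs were past the threshold in a comparison. None of the 7 receptor genes was past 1.5-fold in any comparison, and *Acvr1b*, which encodes the type I receptor ALK4, lay between 1.77 and 2.38. *Smad2* lay between 2.65 and 3.04 and *Smad4*, the common partner, between 3.93 and 4.18. *Smad3* ran from 1.90 in ESCs to 3.02 in the + PRDM14 array labelled KD, a range of 1.12, with none of the 7 comparisons past the threshold. The widest range among the receptors was 0.77, for *Tgfbr1*. The inhibitory SMAD gene *Smad7*, another feedback target, was at 3.71 in ESCs and at 3.01 to 3.45 in the EpiLC arrays, so it did not show the ESC-to-EpiLC difference of *Lefty1* and *Skil*. *Gdf3*, a further ligand gene of the pluripotent epiblast, stayed between 3.03 and 3.47. *Cer1*, a secreted NODAL antagonist of the endoderm, was between -0.54 and -0.20 on all arrays. The streak targets *Eomes*, *Mixl1*, *Gsc* and *Lhx1* were among 6 streak markers of which 0 passed the threshold in any comparison at the brightest probe set. The dimmer probe set of *Eomes* did pass, at 1.40 and 1.00 in the arrays labelled KD relative to scramble EpiLCs (d2) and EpiLCs + PRDM14, and at -0.70 with PRDM14 between the arrays labelled KD.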

How the data were processed

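Total RNA was purified with a PureLink kit, labelled by 3' in vitro transcription and hybridized to Affymetrix mouse strips. The deposited table holds log2 signals, which the authors computed by robust multi-array average. The submitters' processing notes name the Affymetrix Expression Console, with no version in what was used here. The table has 45141 probe sets, of which 104 controls were left out. The platform annotation gave 1 symbol for 28898, several for 551 and none for 15588.

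The array median was subtracted from each column, and arrays were subtracted pairwise (Python 3.11.15, numpy 2.4.6, pandas 2.3.3). The brightest probe set stands for each gene of the pathway lists. The named genes were all members, up to 4 genes past 1.5-fold per pathway list and comparison, and the 3 genes with the most similar pattern. Other genes are named as markers or as fixed members of the lists, and *Smad2*, *Smad3*, *Smad4*, *Smad7*, *Acvr1b*, *Gdf3*, *Cer1* and the streak targets were chosen after their values were seen. The members and lists were chosen with earlier results of these data known. The counting was run on simulated data with planted differences well past the cut-off and an assumed small noise. That checks the code and says nothing of the spread of these arrays. Alternatives were a 2-fold threshold, other alignments of the arrays, a filter on dim probe sets and the mean of a gene's probe sets.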

Additional observations from a re-analysis of the deposited data

Results flagged for a closer look

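*Foxh1* probe set 1422212_PM_at drew attention because its difference with PRDM14 lay on opposite sides of 0 in the 2 backgrounds. EpiLCs + PRDM14 was lower than EpiLCs (d2) by -0.42 in the scramble arrays, and the arrays labelled KD differed by 0.01, so that the difference between them was 0.43. The latter value is close to 0 and takes the other sign (-0.01) when arrays are aligned on housekeeping genes, so that the opposite sides of 0 depend on the scaling. Both values are within 1.5-fold, 1 array stands behind each condition, and the difference was not tested.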

How the results depend on the processing

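No difference past 1.5-fold changed its sign, and among 160 alternative values of single differences and differences of differences 4 did, all of *Nodal* or *Foxh1* at most 0.08 from 0. Among 192 values of the single member probe sets under other alignments, 8 changed sign, from reported values of at most 0.15. The largest was *Foxh1* at 1437779_PM_at between the + PRDM14 arrays, which became -0.06 with no median subtracted and -0.12 with the housekeeping alignment. With a 2-fold threshold, the member probe sets past it numbered 2 in place of 4 for EpiLCs (d2) minus ESCs, 2 in place of 5 for EpiLCs + PRDM14 minus either EpiLCs (d2) or EpiLCs (d4), 0 in place of 2 for the KD-labelled minus scramble d2 arrays, and 2 in place of 5 for the + PRDM14 arrays. The pathway genes numbered 2 in place of 4 for d4 minus d2, 3 in place of 5 and 0 in place of 3 for EpiLCs + PRDM14 minus d2 and d4, 1 in place of 3 between the KD-labelled arrays, 2 in place of 5 for the d2 arrays and 1 in place of 4 for the + PRDM14 arrays. Aligned on housekeeping genes, 3 member probe sets passed for EpiLCs + PRDM14 minus EpiLCs (d4), and the difference of PRDM14 differences was -0.61 for *Skil*. With the mean of all probe sets, 2 pathway genes passed for d4 minus d2, and *Foxh1* was at -0.66 between the KD-labelled arrays. Within 1.5 times the reported count were 29 of 35 member counts and 35 of 42 pathway counts, of which 27 and 27 were equal to it. On the same side of the threshold were 135 of 140 single differences and 19 of 20 differences of differences. Without subtracted medians, the median of all probe sets moved by -0.19 and -0.20 between KD-labelled and scramble arrays, and the housekeeping alignment moved it by 0.11, 0.18, -0.12 and -0.26 in the comparisons of EpiLCs + PRDM14 with d2 and d4 and of KD-labelled with scramble arrays at d2 and with PRDM14. The correlations without the + PRDM14 array labelled KD were added after seeing the data. No paired analysis was possible because each condition has 1 array. No background level was estimated here, so for dim values such as *Lefty2* at -0.99 the size and direction of the error of a fold are not known.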
